A study of Mus musculus with 2 samples.

Results

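Interferon-signature neutrophils are neutrophils that carry transcripts switched on by interferon, and here they numbered 1321 of 21268 cells of the mouse gum. They were chosen in 2 steps from unique molecular identifiers (UMIs), each of which marks 1 captured RNA molecule. A kept cell had at least 500 UMIs, at least 250 genes and at most 10% mitochondrial UMIs. A gated neutrophil was a kept cell with S100a8 and S100a9 at 3% or more of its UMIs and at most 1 UMI of Fn1, Vcan, Ccr2, C1qa, C1qb and Cd79a summed. It also had Camp, Ltf and Ngp under 1% of its UMIs, and at most 1 UMI each of Siglecf and of Rhov. A signature neutrophil was a gated neutrophil with at least 5 UMIs of Ifit1, Ifit3, Rsad2 and Isg15 summed. The rule thus uses measured values, so the levels of these 4 genes, the size of the class and every contrast with the other gated neutrophils are descriptions.

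The cells came from the gingiva of 2 groups of mice, with 1 single-cell library for each. One library is labelled 10% Tet2-/- BMT and the other 10% Tet2+/+ BMT, where BMT is bone marrow transplantation. The 10% in the group name is the donor share, the same in both groups. Which cells of a library carry the labelled genotype was not tested. Tet2 is a DNA dioxygenase, which acts on 5-methylcytosine, and its loss is common in clonal blood cell expansion. Periodontitis was induced in both groups by a ligature, a thread tied around a tooth, which stayed for 5 days and was placed 12 weeks after the transplant. The protocol gives a CD45.2+CD11b+ sort for the first library and a CD45+CD11b+ sort for the second, whereas both sample titles say CD45.2+CD11b+. CD45.2 is an allele of CD45 used to tell donor from host or competitor cells, which a CD45+ sort does not separate. The age and number of the mice, the deleted part of Tet2, the promoter behind any Cre and the share of host cells that remained are not given in the sources used here. No test could be made from 1 library a group, differences between the libraries cannot be told apart from differences between animals, sorts or library preparations, and every interval covers counting error only. Where a pair of values is given without names, the first is the library labelled Tet2-/- and the second the library labelled Tet2+/+.

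Type I interferons bind the receptor Ifnar1 and Ifnar2, and the kinases Jak1 and Tyk2 then activate transcription factors that enter the nucleus and join Irf9 on DNA. Interferon gamma acts through a receptor of its own, Ifngr1 and Ifngr2. Both induce a broad set of antiviral genes, and neutrophils with such transcripts are known from blood, bone marrow and inflamed tissue. Of the genes of the rule, Ifit1 (chr19:34640871-34650009, plus strand) and Ifit3 (chr19:34583531-34588731, plus strand) encode proteins that bind viral RNA or its partners. Rsad2 (chr12:26442746-26456452, minus strand) encodes viperin, an enzyme that makes a chain-terminating nucleotide. Isg15 (chr4:156199424-156200818, minus strand) encodes a ubiquitin-like protein that is joined to other proteins. Gene positions are those of GENCODE M21 on GRCm38 (mm10). Ifit3 has a near-identical neighbour, Ifit3b, so the split of reads between them is uncertain.

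Interferon-activated factors bind repeats of GAAA spaced by 2 bases, and the promoters of the 4 genes of the rule are shown because all 4 held GAAA, any 2 bases and GAAA again. That doubled GAAA motif was searched on both strands from 250 bases before to 50 bases after each start site in RefSeq's promoters of GRCm38.p6, and overlapping matches were merged. It was present for 1079 of 27025 genes (3.99%). Slfn5 and Slfn4 follow as 2 Schlafen genes that were higher in signature neutrophils, the first with the motif and the second with no match in this window. Each line gives the 200 bases before the start site, 5′ to 3′ on the gene's strand, with matches on either strand in capitals.
Ifit1: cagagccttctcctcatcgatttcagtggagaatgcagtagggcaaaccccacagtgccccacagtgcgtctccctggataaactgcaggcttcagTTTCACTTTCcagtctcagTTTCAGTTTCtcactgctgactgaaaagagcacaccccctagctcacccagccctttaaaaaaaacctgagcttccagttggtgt
Ifit3: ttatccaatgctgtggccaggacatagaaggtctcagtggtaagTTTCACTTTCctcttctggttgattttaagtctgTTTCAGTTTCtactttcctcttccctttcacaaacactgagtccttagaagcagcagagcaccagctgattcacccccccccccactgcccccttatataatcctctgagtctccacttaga
Rsad2: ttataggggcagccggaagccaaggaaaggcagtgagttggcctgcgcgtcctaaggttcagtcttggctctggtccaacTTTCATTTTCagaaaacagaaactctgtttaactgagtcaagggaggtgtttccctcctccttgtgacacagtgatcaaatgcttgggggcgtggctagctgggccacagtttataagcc
Isg15: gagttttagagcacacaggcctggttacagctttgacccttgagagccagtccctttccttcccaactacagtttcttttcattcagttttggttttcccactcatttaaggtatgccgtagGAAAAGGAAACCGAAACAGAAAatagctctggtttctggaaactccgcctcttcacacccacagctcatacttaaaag
Slfn5: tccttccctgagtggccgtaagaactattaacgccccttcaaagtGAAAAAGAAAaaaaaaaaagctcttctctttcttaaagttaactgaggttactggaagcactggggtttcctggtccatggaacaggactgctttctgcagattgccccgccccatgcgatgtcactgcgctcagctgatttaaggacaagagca
Slfn4: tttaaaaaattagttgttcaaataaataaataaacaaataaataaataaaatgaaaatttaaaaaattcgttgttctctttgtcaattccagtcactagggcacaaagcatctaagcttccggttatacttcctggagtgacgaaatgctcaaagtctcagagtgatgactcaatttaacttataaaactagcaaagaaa

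These stretches lie at chr19:34640689-34640888, plus strand for Ifit1, chr19:34583329-34583528, plus strand for Ifit3, chr12:26456453-26456652, minus strand for Rsad2, chr4:156200819-156201018, minus strand for Isg15, chr11:82951902-82952101, plus strand for Slfn5 and chr11:83174986-83175185, plus strand for Slfn4. Ifit1 held 2 separate matches, which began 104 and 85 bases before the start site, and Ifit3 held 2, at 156 and 122 bases. In Isg15 overlapping matches formed 1 run, GAAAAGGAAACCGAAACAGAAA, from 78 to 57 bases before the start. Rsad2 held 1 match at 120 bases and Slfn5 1 match at 155 bases.

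The library labelled Tet2-/- held 93919724 UMIs and 9596 kept cells, and the library labelled Tet2+/+ held 100782700 UMIs and 11672 kept cells, with medians of 5920 and 5009 UMIs per kept cell. The libraries shared 31 barcodes of kept cells and 0 of signature neutrophils. Tet2 did not mark the labels: in signature neutrophils it stood at 229 UMIs per 1000000 UMIs of the class (CPM; 95% interval 211 to 248) in the library labelled Tet2-/- and at 154 CPM (141 to 168) in the library labelled Tet2+/+. UMIs are counted at the 3′ end of a transcript, so if the deleted part lies elsewhere, which the sources used here do not say, this level checks nothing. Sex-linked RNA also set the libraries apart, since 21.1% of gated neutrophils had Xist and no Y-linked UMI in the library labelled Tet2-/-, whereas a single gated neutrophil of the other library had an Xist UMI, and 4.08% and 51.7% had a Y-linked UMI and no Xist.

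Signature neutrophils made up a like share of the gated neutrophils in both libraries. They were 556 of 3403 gated neutrophils in the library labelled Tet2-/-, or 16.3% (exact Clopper-Pearson 95% interval 15.1 to 17.6%). In the library labelled Tet2+/+ they were 765 of 4404, or 17.4% (16.3 to 18.5%). The ratio of the shares was 0.941 (0.842 to 1.05), an interval that holds 1. After each cell was thinned to 2000 UMIs, which left out 223 and 428 shallower cells, 9.34% and 10.2% still had 5 signature UMIs. The ratio moved to 0.805 when a cell also had to show at least 2 of the 4 genes, and to 0.752 when Isg15 was left out of the sum. Of all kept cells, signature neutrophils were 5.79% (5.33 to 6.28%) and 6.55% (6.11 to 7.02%). The signature was not limited to the gate: 1315 and 1779 kept cells had 5 or more signature UMIs, and 42.3% and 43% of these were gated neutrophils.

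No gap separated the class from its neighbours. Gated neutrophils with 4 signature UMIs, just outside the rule, numbered 115 and 155, and those with 5, just inside it, 76 and 123. No signature UMI was counted in 1732 and 2165 gated neutrophils (50.9% and 49.2%). Signature neutrophils held a median of 9 signature UMIs in both libraries and at most 113 and 176. Their total depth was close to that of the others, with medians of 3782 and 3921 UMIs against 3939 and 3868.

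**Figure D1:**
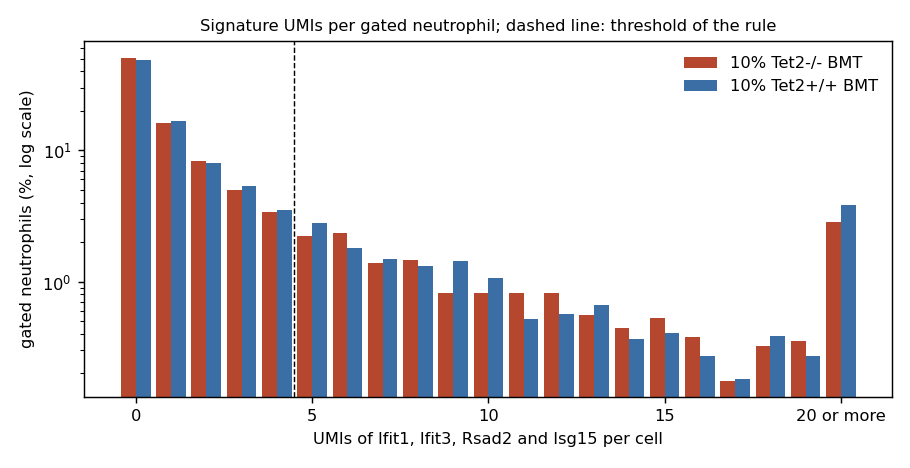
Gated neutrophils by the number of UMIs of Ifit1, Ifit3, Rsad2 and Isg15 per cell (x axis, the last bar pools 20 or more) as a percentage of the gated neutrophils of each library (y axis, log scale), with the threshold of the rule dashed. The bars fall without a gap from 50.9% and 49.2% at 0 UMIs, and 2.85% and 3.86% of cells had 20 or more.

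The 4 genes did not contribute equally, and their mix differed between the libraries. Isg15 stood at 2022 CPM in signature neutrophils of the library labelled Tet2-/- and at 2103 CPM in those of the library labelled Tet2+/+, levels that lay close together. It gave 67% and 56.8% of the signature UMIs. Rsad2 stood at 676 and 894 CPM. The 2 RNA-binding genes were further apart, with Ifit1 at 179.9 and 427 CPM and Ifit3 at 139 and 277 CPM. In the other gated neutrophils, which had 0 to 4 signature UMIs, the same genes reached 126 and 118 CPM for Isg15, 32.2 and 43 CPM for Rsad2, and 3.97 and 9.95 CPM for Ifit1. Of the markers outside the rule, Oasl1, a relative of the RNA-sensing oligoadenylate synthetases, stood at 113 CPM against 13.6 CPM in the library labelled Tet2-/- and 205 CPM against 20.2 CPM in the library labelled Tet2+/+, and Slfn4, a myeloid Schlafen gene, at 483 CPM against 117 CPM in the library labelled Tet2-/- and 1116 CPM against 279.6 CPM in the library labelled Tet2+/+. Both markers were thus higher in signature neutrophils in each library, as the name of the class says.

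How many of the 4 genes a cell showed also differed. All 4 were detected in 9.17% (6.91 to 11.9%) of signature neutrophils of the library labelled Tet2-/- and in 18.7% (16 to 21.6%) of those of the library labelled Tet2+/+. Isg15 alone carried the signature in 34.9% (30.9 to 39%) and 24.1% (21.1 to 27.2%). The intervals of the libraries, which cover counting error only, did not overlap in either count. Both counts use the genes of the rule in 1 library a group, so they are descriptions. Depth was alike, since signature neutrophils with all 4 genes had medians of 3757 and 4009 UMIs and those with Isg15 alone 3786 and 3828. With every cell thinned to 2000 UMIs, Ifit1 was detected in 16.3% and 29% of signature neutrophils and Isg15 in 91.8% and 89.5%. Free RNA, read from barcodes with 1 to 50 UMIs, held 369 and 470.2 CPM of the 4 genes. If it were 5% of a cell of median depth, it would give 0.0698 and 0.0922 signature UMIs, beside the threshold of 5. That 5% was assumed and not measured, and the part of free RNA in the class was not tested. B cells, taken as kept cells with 3 or more UMIs of Cd79a, Cd79b and Ms4a1, held 167 and 188 CPM.

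Antiviral genes outside the rule were higher in cells with more signature UMIs. A list of antiviral effectors held 56 genes besides the rule genes, and their summed level in signature neutrophils was 6326 against 3180.0 CPM in the library labelled Tet2-/- and 8681 against 3769 CPM in the one labelled Tet2+/+. This was 1.99 and 2.30 times the level of the other gated neutrophils. Cells with Isg15 alone stood at 4232 and 4776 CPM for this sum, and cells with all 4 genes at 10794 and 14981 CPM. From no signature UMI to 20 or more, the sum went from 2843 (2805 to 2881) to 9701 CPM (9416 to 9992) in the library labelled Tet2-/-, and from 3242 (3205 to 3279) to 13644 CPM (13389 to 13903) in the other. Each of the tiers plotted between them lay above the one before. Just outside the rule, at 4 UMIs, the sum was 4490.5 and 5541 CPM, and just inside it, at 5 UMIs, 4605 and 5873 CPM. Free RNA held 3374 and 4032 CPM of the effectors, near the level of cells with 1 signature UMI (3272 and 4025 CPM).

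**Figure D2:**
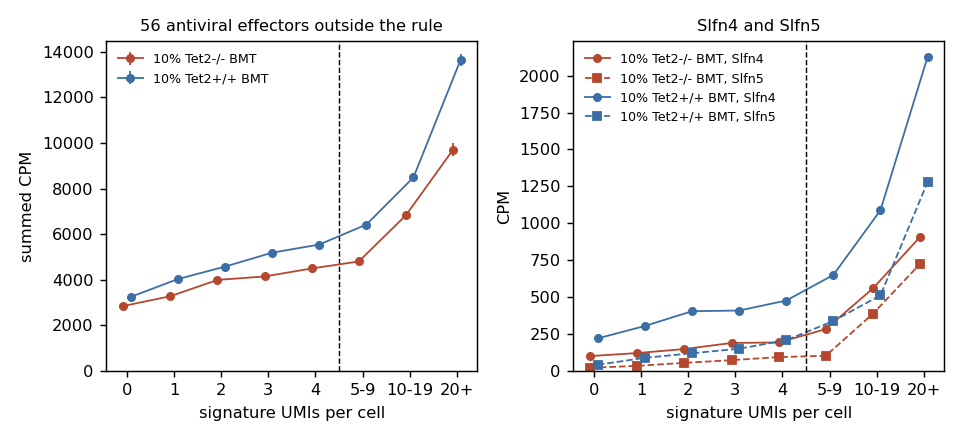
Summed level of the 56 antiviral effectors outside the rule (left, CPM, bars are exact 95% Poisson intervals) and levels of Slfn4 and Slfn5 (right, CPM) in gated neutrophils by signature UMIs per cell, with the threshold of the rule dashed. The sums ran from 2843 and 3242 CPM to 9701 and 13644 CPM, and the library labelled Tet2+/+ lay above the other at each point.

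Across all genes, the class differed from the other gated neutrophils mainly in interferon-stimulated transcripts. A gene was called higher or lower when its log2 ratio, with 10 CPM added to both levels, passed 2-fold in both libraries, and 32 of 2157 genes with at least 50 CPM in either class and 20 UMIs over both were higher (1.48%) and 11 were lower (0.51%). The rule genes were left out of this count, and 27 of the 32 were on one of the interferon gene lists, which held 55 of all genes compared (2.55%). The lists pooled for this were antiviral effectors, Isg15 conjugation, nucleic acid sensors, the IFI200 family, interferon signalling factors and Schlafen genes. Guanylate-binding proteins with immunity-related GTPases, interferon-inducible chemokines, and checkpoint and death ligands, with Cd274, were pooled too. The Ifitm, MHC and feedback inhibitor lists were not. The median log2 ratio over all genes compared was near 0 in both libraries (-0.00 and 0.019). Of the 32, 21 lay under the minimum of 50 CPM in the other neutrophils of at least 1 library and so entered through the signature class, for which a difference was built in. The 5 on no interferon list were AW011738, Gm13822, Trafd1, Clec2d and Smchd1. When Isg15 was left out of the rule the number of higher genes was 60, 30 of them shared.

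Slfn5 and Ifit3b had the 2 highest mean log2 ratios outside the rule, and 2 further Schlafen genes, members of a family that regulates growth and virus replication, were called. Slfn5 stood at 305 CPM against 31.9 CPM in the library labelled Tet2-/- and 607 CPM against 73.1 CPM in the library labelled Tet2+/+, 9.55-fold (95% interval 8.45 to 10.8) and 8.31-fold (7.72 to 8.94) higher. Ifit3b, the neighbour and near copy of Ifit3, stood at 61.9 CPM against 2.38 CPM in the library labelled Tet2-/- and 135 CPM against 5.48 CPM in the library labelled Tet2+/+. Slfn8 reached 68.6 against 13.4 CPM and 135 against 20.2 CPM, and Slfn4, given above, was 4.11-fold and 3.99-fold higher. The Schlafen list as a whole summed to 2411 against 1151 CPM and 3569 against 1369.9 CPM, with 3 of 5 genes that met the minimum called higher, against 1.48% of all genes, 2 of the 5 having met it through the signature class in at least 1 library. Slfn1, at 1.65-fold and 1.78-fold, and Slfn2, at 1.53-fold and 1.67-fold, were not called.

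Among the antiviral effectors, 12 of 25 that met the minimum were called higher, against 1.48% of all genes, and 0 lower, with median log2 ratios of 0.98 and 1.29. Of the 25, 8 met the minimum only through the signature class in at least 1 library. Oasl1 was 8.34-fold and 10.1-fold higher, and Oasl2, another relative of oligoadenylate synthetase, 3.96-fold and 3.27-fold. Oasl2 stood at 252 CPM against 63.8 CPM in the library labelled Tet2-/- and 601 CPM against 183 CPM in the library labelled Tet2+/+. Cmpk2, a mitochondrial nucleotide kinase encoded beside Rsad2, stood at 67.8 against 14.5 CPM and 109 against 17 CPM in the libraries labelled Tet2-/- and Tet2+/+. Isg20, an exonuclease that degrades RNA, stood at 345 against 98.5 CPM and 357 against 76.1 CPM. Rtp4 (4.15-fold and 3.63-fold), the ADP-ribosyltransferase Parp14 (4.22-fold and 4.58-fold) and the ubiquitin ligase Rnf213 (3.55-fold and 4.19-fold) were also higher. Ifi27l2a, a small mitochondrial protein, started from a high level, at 1187 against 456 CPM and 1776 against 795 CPM. Herc6, the ligase that joins Isg15 to its targets in mice, stood at 50.5 against 6.58 CPM and 99.1 against 9.95 CPM, or 7.67-fold (95% interval 5.77 to 10.2) and 9.96-fold (8.21 to 12.1) higher.

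Sensors of foreign nucleic acid were higher as well. The 4 listed sensors that met the minimum were called, against 1.48% of all genes, but each lay under 50 CPM in the other neutrophils and met the minimum through the signature class, so a difference was built in. The 16 genes of the list summed to 442 against 167 CPM and 596 against 217 CPM. Zbp1, a sensor of Z-form nucleic acid that can trigger cell death, stood at 110.0 against 25.8 CPM and 152 against 30.7 CPM. The RNA helicase Ifih1 was 4.80-fold and 4.80-fold higher, its relative Ddx58 3.33-fold and 3.33-fold and the RNA-activated kinase Eif2ak2 3.66-fold and 3.76-fold. Ifi204, of the DNA-binding IFI200 family, stood at 193 against 60.0 CPM and 269 against 58.8 CPM. Guanylate-binding proteins and immunity-related GTPases, which attack the vacuoles of intracellular microbes, summed to 336 against 93.3 CPM and 556 against 130.1 CPM, 3.61 and 4.27 times the level of the others. Gbp2, at 3.78-fold and 5.51-fold, and Gbp7, at 3.14-fold and 3.92-fold, were called higher, and both had met the minimum only through the signature class in at least 1 library. Cxcl10, a chemokine that attracts T cells through Cxcr3, stood at 52.1 against 20.4 CPM and 137 against 25.9 CPM, but its UMIs were uneven, since the 3 richest cells held 42.4% and 46.3% of them.

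**Figure D3:**
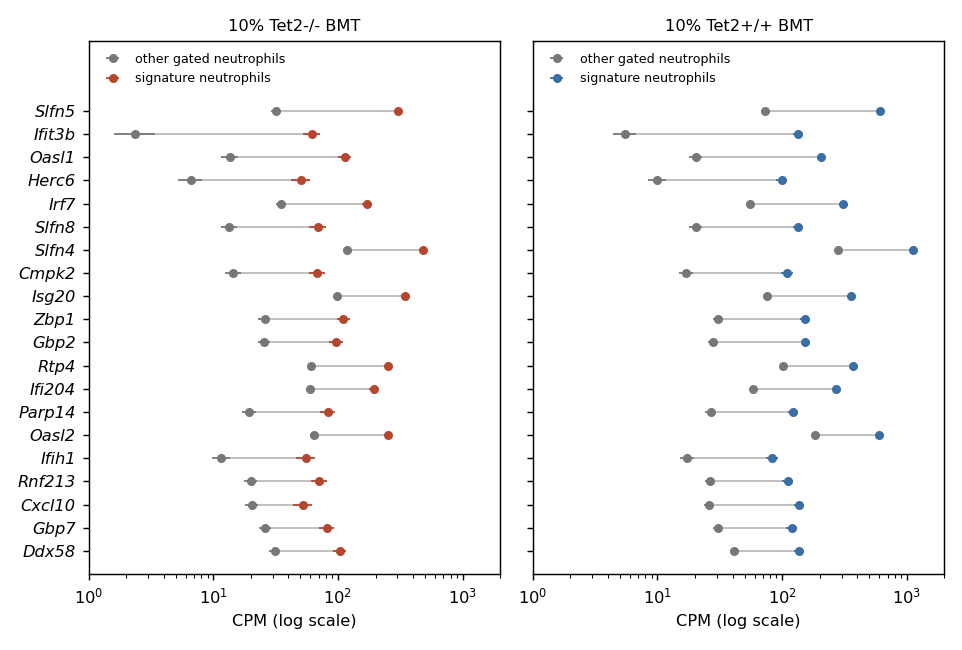
Levels (CPM, log scale) of the 20 genes with the highest mean log2 ratio of signature over other gated neutrophils, in the library labelled Tet2-/- (left) and the library labelled Tet2+/+ (right). Coloured points are signature neutrophils, grey points other gated neutrophils, and bars exact 95% Poisson intervals; Slfn5, at the top, stood at 305 and 607 CPM against 31.9 and 73.1 CPM.

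The factors that carry the interferon signal differed more than the receptors that start it. Irf7, the factor that amplifies type I interferon output, stood at 171 CPM against 34.9 CPM in the library labelled Tet2-/- and 306 CPM against 54.8 CPM in the library labelled Tet2+/+, 4.89-fold (95% interval 4.27 to 5.60) and 5.58-fold (5.10 to 6.12) higher. Of 6 listed factors that met the minimum, 2 were called higher, Irf7 among them, against 1.48% of all genes. Of the 6, 2 met the minimum only through the signature class in at least 1 library. The 16 listed factors summed to 1.56 and 1.84 times the level of the others. Irf9, at 2.25-fold and 2.45-fold, fell short of the call because of the added 10 CPM, and Irf1 stood at 1.29-fold and 1.37-fold. None of the 7 receptor and kinase genes that met the minimum was called, which with 1.48% of all genes called higher is no contrast with genes at large. The summed level of the receptor and kinase list was 1.11 and 1.11 times that of the other neutrophils. Ifnar1 stood at 74.2 against 69.8 CPM and 85.4 against 67.9 CPM, Ifnar2 at 1.03-fold and 1.00-fold, and Ifngr1 at 1.09-fold and 0.957-fold. Feedback inhibitors were not called either, with Socs3, which restrains cytokine receptors, at 1.63-fold and 1.31-fold.

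Interferon ligands were almost undetected in these cells. Of 21 ligand genes, 20 and 19 had no UMI in signature neutrophils. Ifng had 7 UMIs in 2 signature neutrophils of the library labelled Tet2-/- and 1 in the other, of 379 and 590 UMIs in all kept cells. Ifnb1 had 1 UMI, in the library labelled Tet2+/+. No other ligand gene had a UMI in signature neutrophils of either library.

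No gene of MHC class I or class II presentation passed the 2-fold rule, though all 13 class I genes that met the minimum had ratios above 1 in both libraries. Of the 13, 3 met the minimum only through the signature class in at least 1 library. The median log2 ratios of the 13 were 0.37 and 0.59, against values near 0 for all genes. The 20 MHC class I genes summed to 6185 against 4818 CPM and 6576 against 4776 CPM, or 1.28 and 1.38 times the level of the others. Of the 13, 0 passed the 2-fold rule, beside 1.48% of all genes called higher. Tap1, the peptide transporter, stood at 1.92-fold and 2.47-fold, and Psmb8, an immunoproteasome subunit, at 1.45-fold and 1.82-fold. MHC class II genes summed to 0.831 and 1.01 times the level of the others, with Cd74, the invariant chain, at 0.723-fold and 0.876-fold and the protease Ctss, which trims it, at 1.45-fold and 1.87-fold. Cd274, which encodes the checkpoint ligand PD-L1, stood at 149 CPM against 63.2 CPM in the library labelled Tet2-/- and 92.5 CPM against 40.5 CPM in the library labelled Tet2+/+. Cd274 was called higher at 2.35-fold (95% interval 2.08 to 2.67) and 2.28-fold (1.99 to 2.62). In the library labelled Tet2+/+ it met the minimum of 50 CPM only through the signature class. Lilrb4a, at 1.32-fold and 1.25-fold, and Lilr4b, at 1.40-fold and 1.24-fold, related inhibitory receptors whose reads may be shared, were not called.

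Genes of tissue activation summed to a higher level in signature neutrophils, with none past the 2-fold rule. A list of 21 tissue activation genes summed to 60395 against 38489 CPM in the library labelled Tet2-/- and 45886 against 28321 CPM in the one labelled Tet2+/+, 1.57 and 1.62 times the level of the others. Of 16 that met the minimum, 0 passed the 2-fold rule, beside 1.48% of all genes called higher. The median log2 ratios of the 16 were 0.66 and 0.67, against values near 0 for all genes. The difference was smaller with Isg15 left out of the rule, when the sums stood at 1.33 and 1.32 times the other level. The mean log2 ratio of the chemokine gene Cxcl3 then went from 1.02 to 0.28 and that of Cd14, a co-receptor for lipopolysaccharide, from 0.90 to 0.39. Il1b, the precursor of interleukin 1 beta, stood at 22267 against 14189 CPM and 19397 against 12767 CPM. Cxcl2, a chemokine that recruits neutrophils, stood at 25020.5 against 16186 CPM and 17259 against 10009.8 CPM, and the growth factor gene Csf1 at 1.95-fold and 2.05-fold. NF-kB targets and feedback genes summed to 1.49 and 1.47 times the other level, with the inhibitor Nfkbia at 1.56-fold and 1.43-fold. Immediate early genes, which also respond to tissue dissociation, were 1.28 and 1.28 times the other level, with Egr1 at 1.66-fold and 1.56-fold, and their part in these differences was not tested. Glycolysis genes (0.974 and 0.973 times) and genes of oxidative phosphorylation (0.949 and 0.941 times) differed little.

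Genes that interferon gamma induces more than type I interferon had summed levels below those of the other gated neutrophils. The 10 such genes, which share Cd74 and other class II genes with the MHC list, summed to 0.824 and 0.949 times the level of the others, and 0 of 4 that met the minimum were called. Cd74 had the highest level on this list, and its ratio was unstable. Its mean log2 ratio was -0.32, but -1.78 with 5% free RNA subtracted, -0.02 without the deepest 10% of cells and 0.24 at 3 or more signature UMIs. Irf1, next on the list, stood above the others in both libraries, as given above. The sum is thus no measure of the response to interferon gamma. The Ifitm family, which blocks virus entry at membranes, summed to 1.23 and 1.31 times, with 0 of 4 called and its members apart: Ifitm3 stood at 1.57-fold and 2.01-fold and Ifitm6 at 0.629-fold and 0.608-fold. Subunits of the NADPH oxidase, which makes superoxide in phagocytes, summed to 0.896 and 0.920 times, with the membrane subunit Cybb at 0.50-fold and 0.524-fold and none of 6 called. Genes of apoptosis and survival summed to 1.32 and 1.29 times, with Mcl1, which keeps neutrophils alive, at 1.30-fold and 1.28-fold, and stefin A protease inhibitors to 0.989 and 0.787 times, with none of either list called. Of 8 checkpoint and death ligand genes that met the minimum, Cd274 was the 1 called, against 1.48% of all genes. As given above, it met the minimum in 1 library only through the signature class.

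Some transcripts of freshly matured neutrophils were lower, and others were not. Retnlg, a resistin-like secreted protein of young neutrophils, stood at 8191 CPM against 19469 CPM in the library labelled Tet2-/- and 7334 CPM against 16943 CPM in the library labelled Tet2+/+, 2.38-fold and 2.31-fold lower. Mmp8, the neutrophil collagenase, stood at 573 against 1345 CPM and 471 against 1189.7 CPM, 2.35-fold and 2.52-fold lower. Ngp (2.46-fold and 2.34-fold lower), Cd177 (2.67-fold and 2.16-fold lower) and Ly6g (2.21-fold and 2.09-fold lower), a granule protein and 2 surface proteins of maturing neutrophils, went the same way, although Ngp is a gene of the gate, which caps its level. Of the 19 maturation genes that met the minimum, 4 were called lower, against 0.51% of all genes, and 0 higher. Their median log2 ratios were -0.19 and -0.12, 7 stood above 0 in both libraries, and Csf3r (1.24-fold and 1.26-fold) and Cxcr2 (1.04-fold and 1.10-fold), the receptors for granulocyte colony-stimulating factor and CXC chemokines, were among those not called. Secondary and tertiary granule genes summed to 0.560 and 0.648 times the level of the others. S100a8 and S100a9, which the gate uses, had a median share of 12.1% and 12.5% of UMIs in signature neutrophils against 17.7% and 18% in the others.

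The lowest ratios of all, in the primary granule proteases, came from few cells. Elane, Prtn3 and Ctsg, made by granulocyte precursors, were called lower in signature neutrophils, with Elane at 185 against 639 CPM and 12.8 against 333 CPM. In the other gated neutrophils 18 and 11 cells held 10 or more UMIs of Mpo, Elane, Prtn3 and Ctsg. With these cells and the single signature neutrophil like them left out, a choice made after seeing the data, 6 genes were lower in both libraries, and Elane stood at 5.21 against 6.37 CPM and 12.8 against 12.3 CPM. Serpinb1a (3.74-fold and 3.86-fold lower), an inhibitor of those proteases, Adpgk (2.84-fold and 3.14-fold lower), a glycolytic kinase, and the histone gene Hist1h2ap (3.50-fold and 2.32-fold lower) completed the lower set.

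The share of signature neutrophils depended on where in the gate it was read. Tertiles, which are 3 groups of equal size, were set over the gated neutrophils of both libraries together. In the highest tertile of Retnlg and Mmp8, signature neutrophils were 8.43% and 7.96%, and in the lowest tertile 21.2% and 21.3%, with nearly the same values in both libraries. Across tertiles of Cxcl2, the share went from 9.73% to 13.3% to 22.4% in the library labelled Tet2-/- and from 12.3% to 16% to 27.1% in the other. Within each Cxcl2 tertile the library labelled Tet2+/+ was thus higher, whereas its cells lay more in the lowest tertile (41.1% of its gate against 23.2%) and less in the highest (26.2% against 42.6%). In the highest tertile the intervals were 20.2 to 24.6% and 24.5 to 29.7%, so they overlapped narrowly. By depth, the intervals of the middle tertile, at 17.2% and 21.6%, were barely apart, and at 2000 UMIs per cell they overlapped (8.45 to 12.1% and 11.4 to 14.9%), as did those of the lowest and highest tertiles before thinning. At 2000 UMIs per cell the highest tertile of depth had 4.72% and 5.21% and the lowest tertile 14.2% and 12.9%, so the deepest cells carried less signature per UMI.

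**Figure D4:**
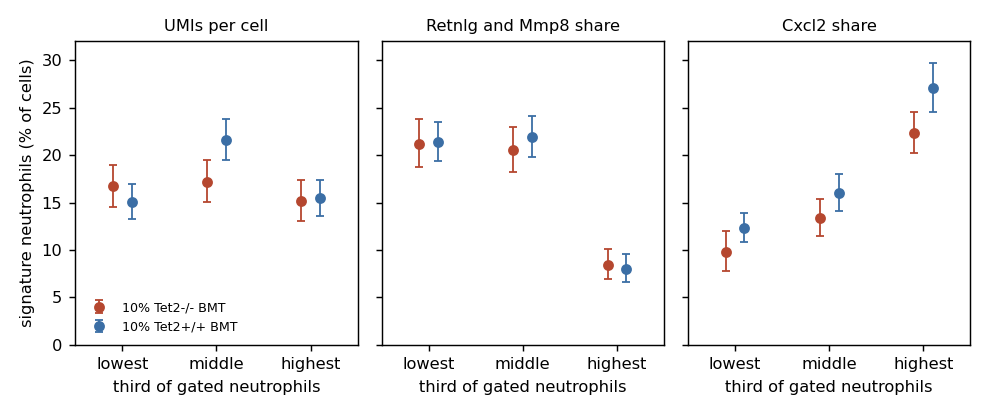
Signature neutrophils as a percentage of gated neutrophils (y axis) in tertiles of the gate by UMIs per cell, by the Retnlg and Mmp8 share of UMIs and by the Cxcl2 share of UMIs, with exact 95% Clopper-Pearson intervals. The share falls to 8.43% and 7.96% in the highest Retnlg and Mmp8 tertile and reaches 22.4% and 27.1% in the highest Cxcl2 tertile.

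The gate shapes these marker sums, since it requires S100a8 and S100a9 and caps Fn1, Vcan, Ccr2, C1qa, C1qb, Cd79a and Siglecf, so a low level of those genes is no result. The 10 neutrophil markers summed to 165918 and 177067 CPM in signature neutrophils. In the order signature against other gated neutrophils, for the library labelled Tet2-/- and then the one labelled Tet2+/+, 8 monocyte markers summed to 281 against 520.2 CPM and 366 against 438 CPM. The 8 macrophage markers summed to 659.9 against 650.3 CPM and 711 against 646 CPM, with none at 0, and the 6 T cell markers to 52.1 against 54.8 CPM and 27.7 against 40.8 CPM. Of 6 markers of plasmacytoid dendritic cells, which produce type I interferon, the sums were 41 against 20.3 CPM and 91.6 against 33.1 CPM, with the defining marker Siglech at 0 in both libraries. Bst2, itself induced by interferon, gave most of that sum at 31.6 and 80.9 CPM. The remaining lists gave 121 against 149 CPM and 154 against 174 CPM for 7 dendritic cell markers, 122 against 150.1 CPM and 144 against 149 CPM for 6 B cell markers and 60.0 against 53.9 CPM and 10.1 against 69.7 CPM for 5 NK cell markers. They gave 13.4 against 13.7 CPM and 22 against 27.7 CPM for 5 eosinophil markers, with Epx at 0 in signature neutrophils of both libraries, and 0 against 0.635 CPM and 0.892 against 0.765 CPM for 5 markers of mast cells or basophils, with Cpa3, Mcpt4 and Ms4a2 at 0. The sums were 24.5 against 9.68 CPM and 7.14 against 9.69 CPM for 5 epithelial markers, 4.73 against 9.28 CPM and 7.73 against 6.44 CPM for 5 fibroblast or endothelial markers and 71.8 against 72.8 CPM and 45.2 against 469 CPM for 7 erythroid or platelet markers. The part of such RNA in the differences above was not tested. For NK cell markers in signature neutrophils of the library labelled Tet2-/-, 152 UMIs in all, most came from 4 cells described below. Without these 4 cells Nkg7 went from 88 to 3 UMIs, Gzma from 48 to 4 and Gzmb from 14 to 1. Mitochondrial UMIs had medians of 0.368% and 0.440% against 0.320% and 0.411%.

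Neutrophils that the gate left out carried the signature at other rates. Cells that passed except for Rhov, with 2 or more UMIs of it, were signature cells in 22.6% (18.3 to 27.4%) and 25.3% (16.9 to 35.2%), of 341 and 95 cells. In the library labelled Tet2-/- the interval lay above that of the gated neutrophils, and at 2000 UMIs per cell it overlapped it (9.56 to 17.1% against 8.35 to 10.4%). Cells left out for Siglecf had 13.2% and 14.2%, of 106 and 473 cells, with intervals that overlapped those of the gate. They were deeper, with medians of 5624 and 5559 UMIs, and at 2000 UMIs the library labelled Tet2+/+ had an interval of 2.96 to 7.0% against 9.24 to 11.1% for the gate, with no overlap. Immature cells left out for the secondary granule genes Camp, Ltf and Ngp had 5.42% and 4.01%, although their medians of 9662 and 11379.5 UMIs were the deepest of these classes. Thinned to 2000 UMIs, 0.422% and 0.568% of them kept 5 signature UMIs, against 9.34% and 10.2% of gated neutrophils, 13% and 11.6% of the Rhov cells and 5.66% and 4.68% of the Siglecf cells.

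Between the libraries, interferon-stimulated genes were lower within the signature neutrophils of the library labelled Tet2-/-. The antiviral effectors outside the rule summed to 6326 CPM there and to 8681 CPM in the library labelled Tet2+/+, a ratio of 0.729 (0.715 to 0.743). In the other gated neutrophils the ratio was 0.844 (0.833 to 0.854). The median log2 ratio over 47 effectors at 10 CPM or more was -0.50 in signature neutrophils, and over 38 effectors it was -0.20 in the others, beside -0.072 for all genes. Past 1.5-fold, with 10 CPM added, 66 of 2280 genes were higher (2.89%) and 91 were lower (3.99%) in the library labelled Tet2-/-. The compared genes held 72 genes of the interferon lists (3.16%), 4 rule genes among them. Of the lower genes 26 were on an interferon list, Ifit1 and Ifit3 of the rule included, and of the higher genes 3, which were Sp140, Ccl5 and Cd274. In the other gated neutrophils 50 of 2261 genes were higher (2.21%) and 48 lower (2.12%). The split between higher and lower turned with the scaling, since median-of-ratios scaling gave 107 higher and 60 lower and moved the median of all genes to 0.036, with the effector median at -0.40. TMM scaling, another normalisation over all genes, gave 106 and 60.

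The single genes differed widely in this contrast. Slfn4 stood at 483 CPM in the library labelled Tet2-/- and 1116 CPM in the one labelled Tet2+/+, a ratio of 0.432 (95% interval 0.405 to 0.461), and the ratio was 0.420 (0.395 to 0.445) in the other gated neutrophils. Oasl2 stood at 252 CPM in the library labelled Tet2-/- and 601 CPM in the one labelled Tet2+/+, a ratio of 0.420 (95% interval 0.384 to 0.460), beside 0.348 (0.321 to 0.376) in the others. Slfn5 (0.502, 0.461 to 0.545) and Irf7 (0.559, 0.498 to 0.626) were also lower, and so were Ifit1 (0.421, 0.378 to 0.468) and Ifit3 (0.503, 0.444 to 0.570) of the rule. The same 4 genes had ratios of 0.437, 0.637, 0.399 and 0.506 in the other gated neutrophils, so the libraries differed there too, as the plot of library ratios shows. Isg15 (0.962, 0.928 to 0.997) and Isg20 (0.967, 0.885 to 1.06) stood near 1, and the log2 ratio of Isg15 changed sign from -0.056 to 0.062 with median-of-ratios scaling. Gbp2 and Ifi204 were lower in signature neutrophils, at 0.627 (95% interval 0.536 to 0.732) and 0.718 (95% interval 0.642 to 0.803), while in the others their ratios were 0.914 (0.789 to 1.06) and 1.02 (0.925 to 1.12). Cxcl10 stood at 52.1 CPM in the library labelled Tet2-/- and 137 CPM in the one labelled Tet2+/+, a value that rests on few cells, as given above.

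**Figure D5:**
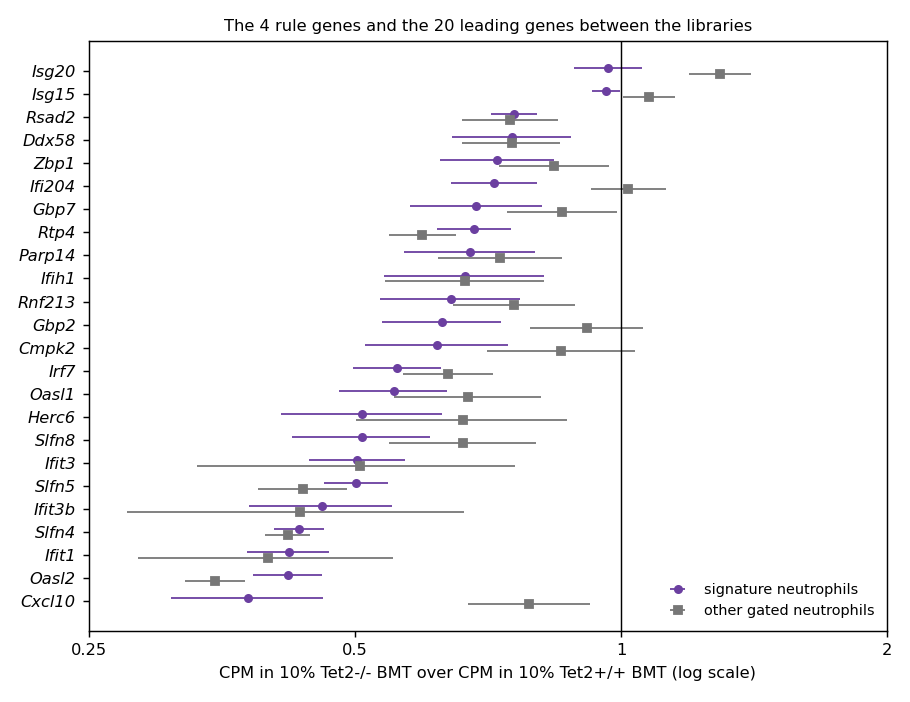
Ratio of the level (CPM) in the library labelled Tet2-/- over that in the library labelled Tet2+/+ (x axis, log scale) for the 4 rule genes and the 20 leading genes, in signature neutrophils (circles) and other gated neutrophils (squares), with exact 95% intervals. Ratios in signature neutrophils run from 0.379 for Cxcl10 to 0.967 for Isg20, and Slfn4 stood at 0.432 and 0.420 in the 2 classes.

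Within tiers of signature counts some genes outside the rule still differed between the libraries, and for others the interval held a ratio of 1. The tier of 20 or more has no upper limit, and its cells reached 113 and 176 signature UMIs, so counts were not matched within it. Ifit1, Ifit3 and Rsad2 summed had ratios of 0.679, 0.773 and 0.688 at 5 to 9, 10 to 19 and 20 or more. Among cells with 0 signature UMIs the Slfn4 ratio was 0.454 (0.417 to 0.494), among cells with 5 to 9 it was 0.435 (0.385 to 0.491), and with 20 or more 0.426 (0.382 to 0.475). Oasl2 ran from 0.318 (0.282 to 0.359) at 0 UMIs to 0.513 (0.437 to 0.599) at 20 or more. The effector sum had a ratio of 0.877 (0.862 to 0.892) at 0 UMIs, 0.748 (0.725 to 0.772) at 5 to 9, 0.804 (0.777 to 0.833) at 10 to 19 and 0.711 (0.686 to 0.736) at 20 or more. Isg15 stayed near equal in the 3 tiers of the class, at 1.06 (0.992 to 1.14), 1.06 (0.987 to 1.13) and 1.00 (0.949 to 1.06), which grouping by a sum that Isg15 dominates partly fixes. Isg20 was higher in the library labelled Tet2-/- at 0 UMIs (1.31 (1.16 to 1.48)) and at 1 to 4 (1.32 (1.18 to 1.46)), and its intervals held 1 in the tiers of the class (1.12 (0.947 to 1.32), 0.966 (0.816 to 1.14) and 1.03 (0.90 to 1.18)). Ifi204 had intervals that held 1 at 0, at 1 to 4 and at 10 to 19 UMIs, where the last ratio was 1.02 (0.825 to 1.26), and was lower at 5 to 9 (0.716 (0.571 to 0.893)) and at 20 or more (0.691 (0.581 to 0.819)). Cd274 was higher in each tier, with ratios from 1.45 to 2.08.

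Some genes of tissue activation were higher in signature neutrophils of the library labelled Tet2-/-. Ccl4, a chemokine that attracts lymphocytes and monocytes, stood at 1676 CPM in the library labelled Tet2-/- and 699 CPM in the one labelled Tet2+/+, a ratio of 2.40 (95% interval 2.28 to 2.52), beside 1.94 (1.88 to 1.99) in the other gated neutrophils. Asprv1, a protease gene (484 against 202 CPM), Tnfrsf23, a decoy receptor gene (149 against 61.6 CPM), and Rgcc, a cell cycle regulator (221 against 95.2 CPM), were also among the 8 highest. Of 19 tissue activation genes compared, 8 were higher, against 2.89% of all genes, and 0 lower, with a median log2 ratio of 0.53 beside 0.55 in the other gated neutrophils. Spp1 (osteopontin) stood at 265 against 123 CPM, Csf1 at 505 against 309 CPM and Fth1, the iron-storing ferritin heavy chain, at 18828 against 11197 CPM. Among the 8 lowest were Plac8 (144 against 351 CPM), Oser1 (43.8 against 123 CPM), Scimp (15 against 56.8 CPM), Cyb5r1 (33.9 against 91 CPM) and Cstdc5 (17.4 against 88.3 CPM), a stefin-like gene for which 3 cells held 50% and 66.3% of the UMIs. Plac8 stood at a ratio of 1.01 (0.957 to 1.07) in the other gated neutrophils.

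The 4 highest ratios between the libraries came from 4 cells of the library labelled Tet2-/-. Mpo (165 against 10.1 CPM), Elane (185 against 12.8 CPM) and Prtn3 (158 against 20.5 CPM) led the list, and a single signature neutrophil with 38834 UMIs held 1314 of 1366 UMIs of these genes and Ctsg. Without it the log2 ratios were -0.61 for Mpo, -0.58 for Elane and -0.55 for Prtn3, so the direction turned. Ccl5 (105 against 18.1 CPM) also rested on few cells. The 4 cells with 10 or more UMIs of Ccl5, Gzma, Gzmb and Nkg7, transcripts of cytotoxic lymphocytes, held 395 of 417 UMIs of these genes. They held 253 of 267 UMIs of Ccl5 itself. The cell rich in Mpo, Elane and Prtn3 was among the 4 through Nkg7 alone. Leaving it out kept Ccl5 at 267 UMIs and took Nkg7 from 88 to 45. Without the 4 cells the log2 ratio of Ccl5 was -0.84. These 4 cells had a median of 11548 UMIs, against 3782 for the class, and no doublets were called here. Both exclusions were chosen after seeing the data, and without the same cells Slfn4 and Oasl2 had log2 ratios of -1.17 and -1.20 (primary granule cells left out) and -1.16 and -1.19 (cytotoxic cells left out).

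Sex-linked RNA moved with both the library and the signature. In the library labelled Tet2-/-, cells with Xist and no Y-linked UMI were signature neutrophils in 15% (12.5 to 17.8%) of 719 gated cells, and cells with a Y-linked UMI and no Xist in 27.3% (20.1 to 35.5%) of 139. In the library labelled Tet2+/+, cells with a Y-linked UMI and no Xist were signature neutrophils in 19% (17.4 to 20.7%) of 2276. Depth differed between these sets, with medians of 4793, 4687 and 4110.5 UMIs. The effector sum in signature neutrophils was 5655 CPM (5469 to 5846) in the Xist cells and 5787 CPM (5462 to 6127) in the Y-linked cells of the library labelled Tet2-/-, both below the 8497 CPM of the Y-linked cells of the other library. Cells with neither kind of UMI were 72.5% and 43.4% of signature neutrophils, with effector sums of 6721 and 8965 CPM. Gated cells of this kind were signature neutrophils in 15.9% (14.5 to 17.4%) and 15.6% (14.1 to 17.2%). In the library labelled Tet2+/+ this share thus lay below that of cells with a Y-linked UMI, at a lower median depth of 3635 UMIs. With Y-linked cells alone in both libraries the effector median was -0.62, and with Xist cells against Y-linked cells it was -0.50. Which animals or marrow these cells came from was not tested.

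The promoters of the higher genes held the motif shown at the start in a larger share than promoters at large. Of the 32 higher genes, 26 had a promoter in the table, and 12 of these held the doubled GAAA motif (46.2%), against 5.56% of the 1726 genes compared and 3.99% of all genes. The 12 were Clec2d, Cxcl10, Ddx58, Eif2ak2, Gbp2, Gbp7, Ifih1, Ifit3b, Oas3, Slfn5, Slfn8 and Trim30a, whereas Irf7, Oasl1, Oasl2, Herc6, Cmpk2, Isg20 and Slfn4 had no match in this window. None of the 9 lower genes with a promoter held it. Since interferon genes were used to choose the cells, these shares describe the set and test nothing.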

How the data were processed

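Gingival CD11b+ cells from 2 libraries, 1 per group, were measured by 3′ single-cell RNA sequencing. The authors deposited raw UMI counts per gene and barcode, empty barcodes included; per the submitters' processing notes they were made on mm10 with Cell Ranger 6.1.2, whereas the matrix header names version 4. Cells were kept and gated by the thresholds of the opening paragraphs, and no doublet caller was run. UMIs were summed per library and class, divided by the class total and given as CPM; ratios used to call genes had 10 CPM added to both sides, and printed folds had none added. Levels have exact Poisson, ratios conditional binomial and shares Clopper-Pearson 95% intervals, computed with Python 3.11.15 and scipy 1.17.1. Counts of at least 20 UMIs and 50 CPM limit which genes could be called. The calling step was tested on simulated counts. No count model was run, since each group is 1 library.

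The genes named are the rule genes and their 2 listed markers, the 20 highest and 10 lowest of the class contrast, the 8 highest and 8 lowest between libraries, and 2 to 4 of each list; any other gene was chosen after its values were seen. Some results are not reported here. Members and lists were chosen with earlier results of these data known. A total of 41 gene lists were summed. Alternatives covered cell filters, the threshold, each rule gene, scaling, pseudocount, gene minimum, depth, free RNA and sex-linked cells.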

Additional observations from a re-analysis of the deposited data

Results flagged for a closer look

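Ccl5, a chemokine of cytotoxic lymphocytes, went in opposite directions in different parts of the data, and the difference was not tested. Between the libraries its log2 ratio was 2.03 in signature neutrophils and -1.73 in the other gated neutrophils. Between the classes it was 1.85 in the library labelled Tet2-/- and -1.92 in the library labelled Tet2+/+. Ccl5 stood at 105 against 22.1 CPM in the first library and at 18.1 against 96.3 CPM in the second. The 4 signature neutrophils with cytotoxic transcripts described above hold 395 of 417 UMIs of that group of genes, and without such cells the library ratio in signature neutrophils was -0.84.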

How the results depend on the processing

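Under each alternative run for it, the effector median, which kept the rule genes on its list, stayed below 0, between -0.62 and -0.40. It was -0.45 with no UMI of other-cell genes allowed, -0.46 without the deepest 10% of cells, -0.57 without Rsad2 in the rule, -0.41 under TMM, -0.40 under median-of-ratios scaling, -0.62 in Y-linked cells of both libraries, -0.57 at 10 or more signature UMIs, -0.55 at a signature of 0.1% of UMIs and -0.59 with 1 CPM added. The ratio of shares was 0.752 without Isg15, 0.790 for Xist against Y-linked cells, 1.44 for Y-linked cells of both libraries and 0.805 with 2 genes required, so its direction turned in Y-linked cells. Genes higher and lower in the library labelled Tet2-/- numbered 106 and 60 under TMM, 107 and 60 under median-of-ratios scaling, 152 and 142 for Xist against Y-linked cells, 232 and 404 for Y-linked cells, 127 and 220 at a minimum of 1 UMI, and 116 and 203 at 10 CPM. Without Isg15 103 were higher, and at 10 or more signature UMIs 155 were lower. Genes higher in signature neutrophils numbered 60 without Isg15 and 20 in Y-linked cells. Genes lower numbered 3 without the deepest 10%, 6 at 3 or more signature UMIs, 6 without cytotoxic and 6 without primary granule cells, 5 by the mean of per-cell CPM and 7 with depth weighting. Minimums of 1 UMI or 10 CPM test more genes, and the sets by sex-linked RNA hold fewer cells; for the other changes the cause was not tested.

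Of 3027 values of named genes, 2118 stayed within counting error. Of all, 79 changed sign, 38 for genes past the fold rule, given next, and 41 for other named genes. The log2 library ratios of Elane, Mpo and Prtn3, in that order, were -0.44, -0.84 and -0.43 with no other-cell UMI, -0.60, -0.60 and -0.52 without the deepest 10%, -0.54, -0.80 and -0.71 without Isg15, -0.65, -0.58 and -0.60 at S100a8 and S100a9 of 5%, -1.09, -1.09 and -1.13 in Y-linked cells, -0.74, -0.56 and -0.32 at 10 signature UMIs, -0.57, -0.45 and -0.58 with 2 genes, -0.58, -0.60 and -0.54 without cytotoxic cells, -0.58, -0.61 and -0.55 without primary granule cells and -0.65, -0.48 and -0.40 at 0.1% of UMIs. That of Ccl5 was -0.75 without the deepest 10%, -0.68 without Isg15, -0.57 at 10 signature UMIs, -0.84 without cytotoxic cells and -0.93 at 0.1% of UMIs. Cstdc5 turned to 0.061 in Y-linked cells and 0.12 at 10 signature UMIs, and the class ratio of Prtn3 to 0.10 without primary granule cells. Leaving out primary granule cells or cytotoxic cells and requiring 2 genes were chosen after seeing the data. No paired analysis was possible because each group is 1 library.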
